A study of Arabidopsis thaliana with 12 samples.

Results

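The genes described here belong to the chloroplast NDH complex and to chlororespiration. They are the genes for the complex subunits NdhS (AT4G23890) and NdhN (AT5G58260), for the assembly factor CRR41 (AT1G51100), for the RNA editing factor CRR21 (AT5G55740), and for PIFI (AT3G15840), a protein named after a rise of chlorophyll fluorescence after illumination. Each was found by its symbol among the 692 probes of the array that list 1 gene, and each had 1 such probe, so that 5 of 3439 probes are described. A pair of groups, each of 6 samples of total RNA, was compared, all from wild-type Arabidopsis thaliana plants of ecotype Landsberg. One group was treated with 50 µM paraquat, a herbicide that accepts electrons at photosystem I and hands them on to oxygen, and the other with water. Plants of both groups had passed 12 h in darkness and were sampled after 30 min of renewed light. The comparison asks which transcripts the herbicide had altered so soon after the light came back on. The labels do not say whether the numbers 1 to 6 within a group stand for separate plants or for repeated measurements, and the p-values here rest on the spread among these 12 samples alone, part or all of which may be technical.

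The NDH complex sits in the thylakoid membrane and passes electrons from reduced ferredoxin, made by photosystem I, back to the plastoquinone pool, and it moves protons while doing so. It thereby drives one route of cyclic electron flow, and it also reduces plastoquinone in the dark, the process called chlororespiration. Some of its subunits are encoded in the plastid genome, the others in the nucleus. Nuclear genes also supply the factors that fold and join the subunits and that edit the plastid transcripts. Many of these factors carry the name CRR, for chlororespiratory reduction, because mutants in them lack the fluorescence rise that the complex causes after a light period. Paraquat takes its electrons at the place from which ferredoxin receives them.

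Values are deposited array intensities. No source states their scale or reference, and they were read as linear because they hold zeros and a long upper tail, so that folds and ratios rest on that reading. Column medians lay between 0.563 and 0.635 under paraquat and between 0.443 and 0.491 under water, and the columns were therefore quantile normalized before the test. Samples with neighbouring numbers (1 and 2, 3 and 4, 5 and 6) were closer to each other than other samples of a group. Their median absolute log2 difference was 0.17 under paraquat and 0.18 to 0.20 under water, while other pairs of samples had 0.23 to 0.30 under paraquat and 0.34 to 0.44 under water. Log2 fold changes also varied with the number of the probe, repeating every 288 numbers. Over 24 bins of that period their medians ran from -0.77 to 0.61, so values after each sample was centred on its bin medians (position centring) are given as well. Of 12 green-tissue genes listed as markers, 4 had a probe of their own (PSBW, PSBY, PSAN and LHB1B2). None of these was at 0 in any sample, and their summed intensity was 31.2 to 40.1 under paraquat and 36.9 to 46.6 under water. None of 6 root markers had a probe of its own, so the share of root in the samples was not tested. In such bulk samples, fewer cells of a type and less RNA per cell cannot be told apart.

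Of the 5 genes, NdhS, CRR41 and CRR21 rose under paraquat, none fell, and NdhN and PIFI did not pass the test (limma, Benjamini-Hochberg adjusted over 3439 probes, threshold 0.05). Their count is to be read against the whole array, where 52.5% of all probes passed. Of probes that list 1 gene, 23.8% passed as higher and 26.3% as lower. CRR41 showed the largest rise of the 5 genes, 3.02-fold, and it was the 1 gene of the 5 whose groups did not overlap. Over the whole array 35.4% of probes had groups that did not overlap, 20.8% with paraquat above. NdhS rose 2.20-fold and CRR21 1.63-fold, both with a wide spread under water. The median log2 fold change of the 5 genes was 0.70, the value of CRR21, against -0.04 over all probes. After position centring CRR21 was at 0.33, against a median of -0.07 over all probes. No probe was left out for a low value. PIFI was listed at 0 in 1 paraquat sample, and the other 4 genes had no zero.

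**Figure D1:**
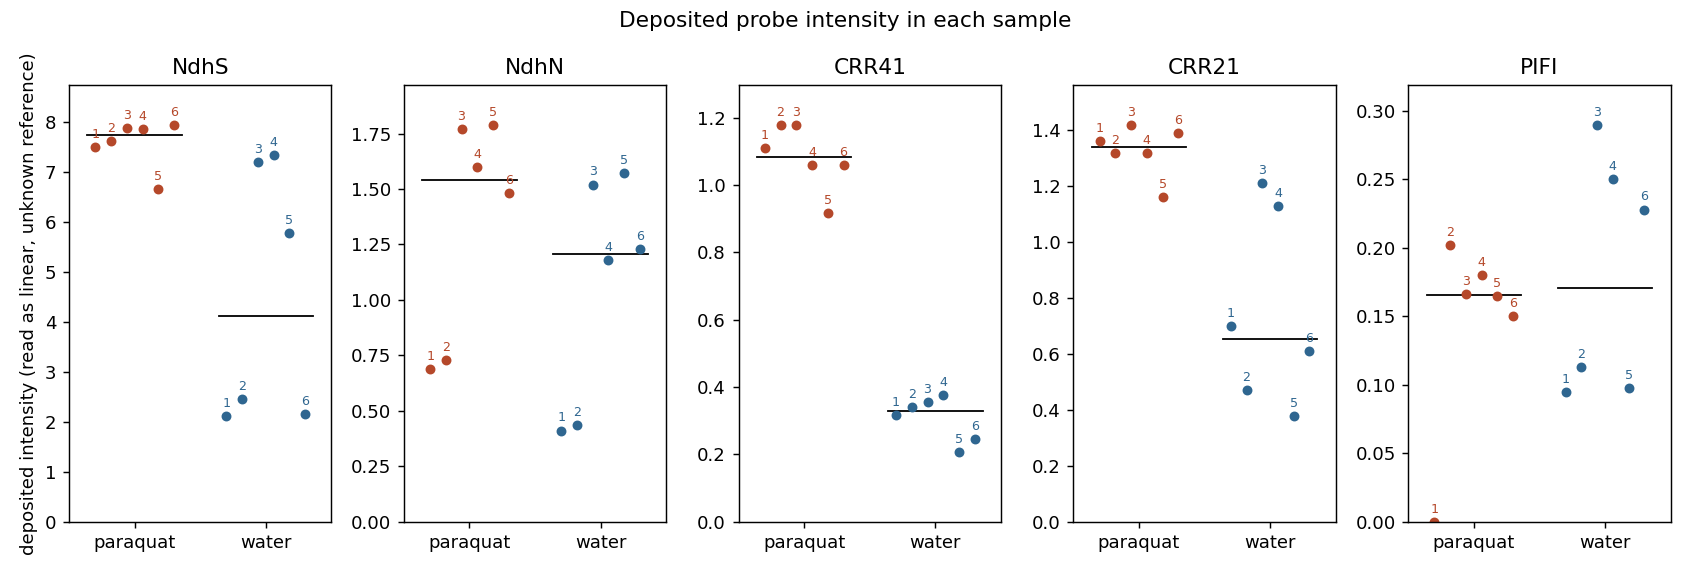
Deposited intensity (vertical axis, linear, starting at 0) of the 5 probes in each of the 6 paraquat samples (left, red) and the 6 water samples (right, blue). Points carry the sample number and horizontal lines mark group medians. The CRR41 groups do not overlap, water samples 3, 4 and 5 of NdhS and 3 and 4 of CRR21 lie far above the other water samples, and NdhN is low in samples 1 and 2 of both groups.

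NdhS is the subunit at which ferredoxin docks on the complex. Its intensity ran from 6.65 over a median of 7.74 to 7.94 under paraquat, and from 2.11 over a median of 4.11 to 7.34 under water. The 6 paraquat samples were alike, while the water samples parted into a low set, numbers 1, 2 and 6 at 2.11, 2.45 and 2.15, and a high set, numbers 3, 4 and 5 at 7.19, 7.34 and 5.77. Water samples 3 and 4 lay above the lowest paraquat sample, so the groups overlapped. The log2 fold change was 1.14 ± 0.33 (SE, n = 6 per group; 95% interval 0.41 to 1.86; limma, adjusted p = 0.0125).

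Every paraquat sample had more NdhS signal than the water sample of the same number. After quantile normalization 24.4% of all probes were likewise higher in every numbered pair. The NdhS differences were of very unequal size. For numbers 1, 2 and 6 the ratios of deposited intensities were 3.55, 3.11 and 3.70. For numbers 3, 4 and 5 they lay between 1.07 and 1.15. Neighbouring numbers also parted: water samples 5 and 6 differed by 1.28 on the log2 scale, and 1.91% of the 3186 probes without a zero differed at least as much between these 2 samples. The SD of the log2 values of NdhS was 0.13 under paraquat and 0.85 under water, against a median SD over probes without a zero of 0.24 under paraquat and 0.34 under water.

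The size of the NdhS rise depended on the scaling and on which samples were used. Position centring gave 1.59 ± 0.37 (SE, limma, adjusted p = 0.00404), since the other 136 probes of its bin had a median log2 fold change of -0.56, and 3 of them exceeded NdhS. With that centring NdhS and CRR41 were the 2 of the 5 genes that passed, and 47.4% of all probes did. Median centring gave 0.62 (limma, adjusted p = 0.125). The call was also lost with numbers 1 and 2 left out (0.82, limma, adjusted p = 0.0993), with numbers 5 and 6 left out (1.05, adjusted p = 0.0908), and with neighbouring numbers averaged (1.14, adjusted p = 0.0904).

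NdhN is a nucleus-encoded subunit of the part of the complex that reaches into the stroma. Its intensity ran from 0.688 over a median of 1.54 to 1.79 under paraquat, and from 0.411 over a median of 1.20 to 1.57 under water. In both groups samples 1 and 2 were far below samples 3 to 6, at 0.688 and 0.729 against at least 1.48 under paraquat, and at 0.411 and 0.434 against at least 1.18 under water. This split between sample numbers was larger than the difference between treatments, and the groups overlapped. The log2 fold change was 0.21 ± 0.42 (SE, n = 6 per group; 95% interval -0.71 to 1.14; limma, adjusted p = 0.702), an interval that holds no change as well as a 2-fold rise.

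With the sample number as a block, which takes out the split, NdhN passed at the same size, 0.21 ± 0.07 (SE, limma, adjusted p = 0.0319), as did 57.1% of all probes. That call was lost when neighbouring numbers were averaged and their pair kept as the block (0.21 ± 0.12, SE, limma, adjusted p = 0.234). All 6 numbered pairs were higher under paraquat, by 0.13 to 0.31 on the log2 scale, and 24.4% of all probes were higher in every pair. After position centring all 6 pairs were lower instead, by log2 differences between -0.33 and -0.07, and the fold change was -0.25 (limma, adjusted p = 0.669). The other 148 probes of its bin had a median log2 fold change of 0.39. The direction of NdhN thus turned with the treatment of probe position. Leaving out numbers 1 and 2 gave 0.19 ± 0.12 (SE, limma, adjusted p = 0.233).

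CRR41 is a stromal protein needed to assemble the part of the complex to which NdhN belongs, and it is not itself a subunit of the finished complex. Its intensity ran from 0.917 over a median of 1.08 to 1.18 under paraquat, and from 0.208 over a median of 0.328 to 0.376 under water. Every paraquat sample lay above every water sample; 20.8% of all probes had groups separated in this direction. The log2 fold change was 1.60 ± 0.15 (SE, n = 6 per group; limma, adjusted p = 3.75e-06), which is 3.02-fold with a 95% interval of 2.42 to 3.77.

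Across the numbered pairs the CRR41 ratio of deposited intensities stayed between 2.81 and 4.41. Water samples 5 and 6 were the lowest, at 0.208 and 0.246, and paraquat sample 5 was the lowest of its group. Position centring left the change at 1.65 ± 0.13 (SE, limma, adjusted p = 2.03e-06). The other 145 probes of its bin had a median of -0.09, and 1 of them rose more. CRR41 kept its call in all 26 alternatives tried, at log2 fold changes between 1.34 and 1.84. Over the whole array, 5.21% of probes had a log2 fold change at least as high.

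CRR21 is a pentatricopeptide repeat protein, an RNA-binding protein that directs the editing of the plastid transcript of the subunit gene ndhD. Its intensity ran from 1.16 over a median of 1.34 to 1.42 under paraquat, and from 0.378 over a median of 0.654 to 1.21 under water. As with NdhS, the paraquat samples were alike and the water samples were spread: numbers 3 and 4 had 1.21 and 1.13, while the other 4 had 0.378 to 0.699. Water sample 3 lay above the lowest paraquat sample, which was sample 5. The log2 fold change was 0.70 ± 0.25 (SE, n = 6 per group; 95% interval 0.16 to 1.24; limma, adjusted p = 0.0309).

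The ratio of deposited intensities of CRR21 was 1.17 for numbers 3 and 4 and 1.95 to 3.06 for the others. Its bin had a median log2 fold change of 0.52 over the other 143 probes, of which 57 rose more than CRR21. After position centring the change was 0.33 ± 0.23 (SE, limma, adjusted p = 0.258), and 4 of 6 pairs were higher. The call was also lost without paraquat sample 3, 4 or 6, or without water sample 2, 5 or 6, with adjusted p between 0.0513 and 0.0667, and with neighbouring numbers averaged (0.70, limma, adjusted p = 0.147). Leaving out numbers 5 and 6 gave 0.45 (limma, adjusted p = 0.207), and leaving out numbers 1 and 2 gave 0.64 (adjusted p = 0.163).

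**Figure D2:**
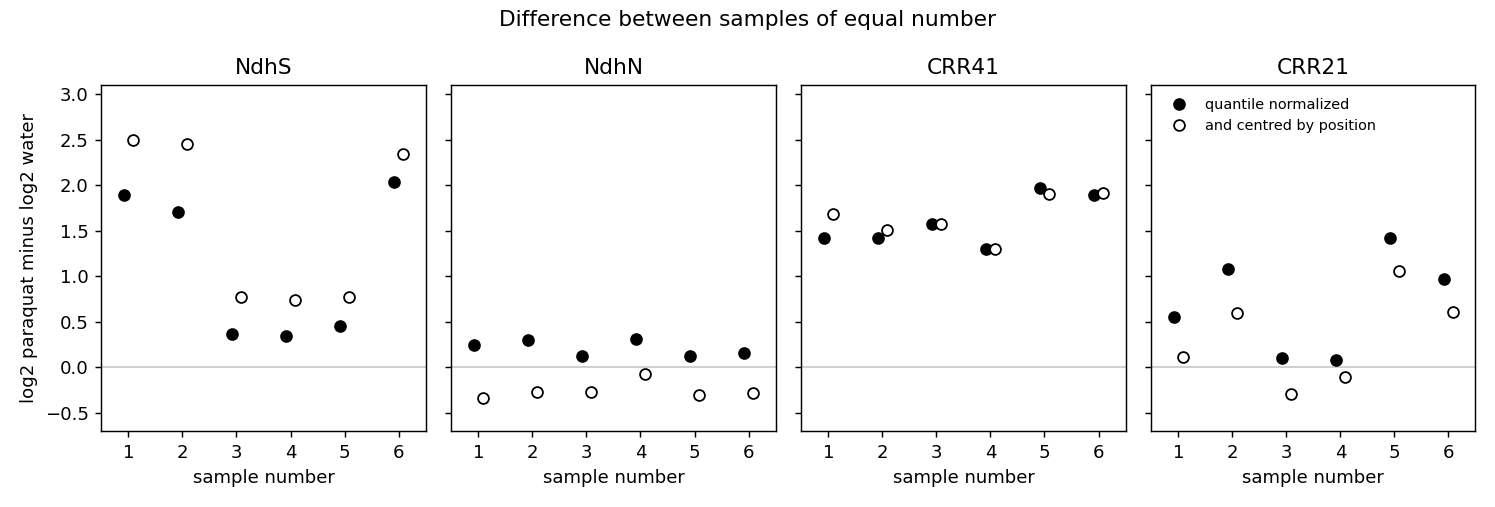
Log2 paraquat minus log2 water (vertical axis) for samples of equal number (horizontal axis, 1 to 6) of the 4 genes without a zero, after quantile normalization (filled) and after additional position centring (open). CRR41 lies between 1.30 and 1.97 in all 6 filled points, NdhS falls into 3 pairs near 0.4 and 3 pairs above 1.7, and the NdhN points change sign with position centring.

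PIFI is a nucleus-encoded chloroplast protein known for its effect on the reduction of plastoquinone in chlororespiration. Under paraquat it was listed at 0 in sample 1 and had 0.202, 0.166, 0.180, 0.165 and 0.150 in samples 2 to 6. Under water samples 1 to 6 had 0.0946, 0.113, 0.290, 0.250, 0.0973 and 0.228. The 5 paraquat values above 0 all lay within the range of the water samples. Of its 12 values, 4 (the zero and water samples 1, 2 and 5) lay under 0.118, the 5th percentile of all values above 0, and the other 8 lay at 0.150 to 0.290.

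The fold change of PIFI depended on the value given to the zero. With the zero set to the lowest value above 0 of its column, which put it at -10.36 after normalization, the log2 fold change was -1.21 ± 1.25 (SE, limma, adjusted p = 0.446). A pseudocount of 0.1 gave -0.22 ± 0.29 (SE, limma, adjusted p = 0.542; 95% interval -0.85 to 0.40). Leaving out probes with a mean under 0.118, which kept PIFI, gave -0.67 (limma, adjusted p = 0.434). Without paraquat sample 1 the sign turned, to 0.08 (limma, adjusted p = 0.861). In 2 of 6 numbered pairs PIFI was higher under paraquat. No direction can be given for it.

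Whether the 4 genes without a zero changed by unequal amounts was tested for all 6 pairs of genes, on the difference of their log2 values within each sample (exact permutation test over the 12 samples, two-sided, Benjamini-Hochberg over 6 pairs). With the 12 samples taken as separate, CRR41 rose more than CRR21. The log2 difference was 0.89 ± 0.19 (SE, n = 6 per group, exact p = 0.00216, the smallest these samples can give, adjusted p = 0.0130). It was positive in all 6 numbered pairs, between 0.34 and 1.47. With the sample number as a block the exact sign-flip test gave p = 0.0312, the smallest that 6 pairs allow, and an adjusted p of 0.0625. With neighbouring numbers averaged the exact permutation test gave p = 0.1 and an adjusted p of 0.2. That p is the smallest the averaged samples allow, so they cannot decide whether the difference holds.

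The other 5 pairs of genes did not pass. NdhS exceeded NdhN by 0.92 ± 0.38 (SE, n = 6 per group, exact permutation test, adjusted p = 0.0649), and NdhN lay below CRR41 by a log2 difference of -1.38 ± 0.52 (adjusted p = 0.0649, same test). NdhS minus CRR41 was -0.46 ± 0.37, NdhS minus CRR21 was 0.44 ± 0.33 and NdhN minus CRR21 was -0.49 ± 0.47 (SE, adjusted p = 0.265, 0.265 and 0.340, same test). After position centring the differences of NdhS from NdhN (1.85), of NdhS from CRR21 (1.27) and of NdhN from CRR41 (-1.90) passed as well (exact permutation test, adjusted p = 0.00649, 0.0195 and 0.00866).

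**Figure D3:**
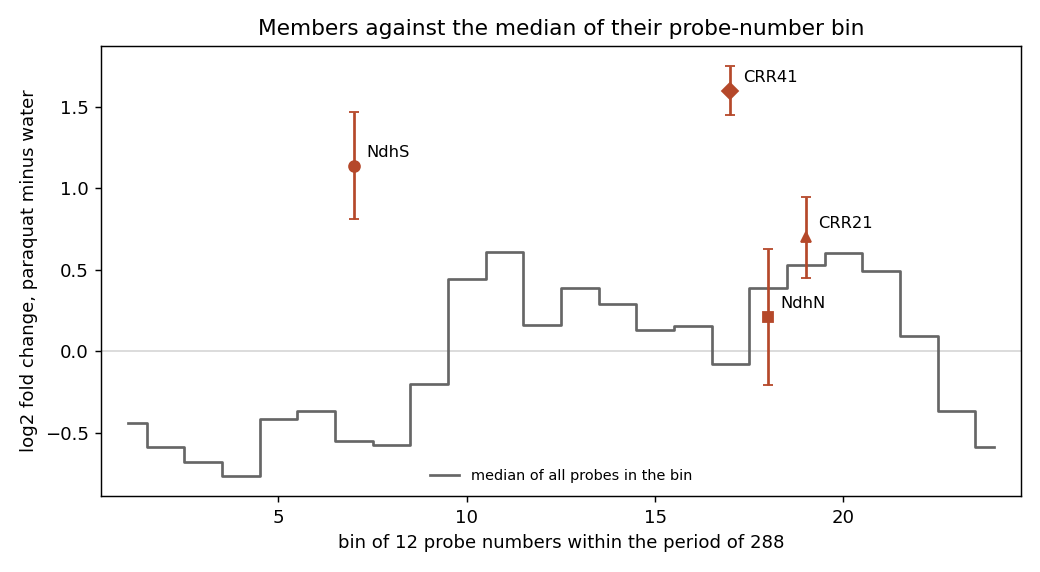
Log2 fold change, paraquat minus water (vertical axis), against the bin of the probe number within its period (horizontal axis, 24 bins of 12 numbers). The grey line is the median of all probes of a bin, and points with SE bars are the 4 genes without a zero. NdhS and CRR41 stand well above the median of their bins (-0.56 and -0.09 without them), while CRR21 and NdhN lie within 1 SE of theirs (0.52 and 0.39).

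A list of 56 genes of the NDH route, of chlororespiration and of related cyclic electron flow was used for the surroundings of these genes. It holds 18 nuclear subunit genes, of which NdhS and NdhN had a probe of their own, and 12 plastid-encoded subunit genes, of which 0 had one. Each copy of ndhB counts as a gene here and in the 56. Altogether 7 genes of the list had a probe of their own: the 5 above, Cpn60beta4 and OTP85. Of these 7, 4 rose, 0 fell and 3 did not pass, on an array where 52.5% of all probes passed. Their median log2 fold change was 0.70, again the value of CRR21, against -0.04 over all probes. As above, CRR21 was at 0.33 after position centring. The list was drawn up with earlier results of these data known, and 7 genes are too few to speak for the pathway.

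Cpn60beta4 (AT1G26230), also known as CRR27, is a chaperonin subunit needed to fold the plastid-encoded subunit NdhH, so that it acts, like CRR41, before the complex is complete. Its intensity ran from 0.447 over a median of 0.466 to 0.602 under paraquat and from 0.0597 over a median of 0.132 to 0.184 under water. These groups did not overlap, and 20.8% of all probes were separated in this direction. Deposited ratios were 7.49 and 6.56 for numbers 5 and 4 and between 3.19 and 3.67 for the other 4 numbers, and the water values lay near the 5th percentile of the array. The log2 fold change was 2.09 ± 0.29 (SE, n = 6 per group, limma, adjusted p = 8.23e-05), and 1.39 with a pseudocount of 0.1. The other 140 probes of its bin had a median of 0.37, and position centring lowered the change to 1.58 (limma, adjusted p = 0.00109).

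OTP85 (AT2G02980), like CRR21 a pentatricopeptide repeat protein for the editing of ndhD, had 0.198 to 0.491 (median 0.326) under paraquat and 0.230 to 0.451 (median 0.329) under water. Its groups overlapped almost wholly. The log2 fold change was -0.26 ± 0.21 (SE, n = 6 per group; 95% interval -0.72 to 0.21; limma, adjusted p = 0.340), and 2 of 6 numbered pairs were higher under paraquat. After position centring it was -0.53 (95% interval -1.08 to 0.03, limma, adjusted p = 0.111), and 0 of 6 pairs were higher.

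For each gene without a zero, the 3 probes with 1 gene whose log2 values followed it most closely over the 12 samples were looked up among 635 candidates. These correlations hold the difference between the groups and the links between samples and probe positions, and they are given as a description. CRR41 was followed most closely by AT5G19750 (Pearson's r 0.989, but 0.651 after position centring), by AT3G52960, a plastid type II peroxiredoxin (0.980, 0.958 centred), and by AT4G35660 (0.979, 0.981 centred). Closest to NdhS were AT5G05400 (0.938, 0.811 centred), AT3G56330 (0.931, 0.908 centred) and AT2G23160 (0.914, 0.908 centred). For NdhN they were LrgB (0.910, 0.800 centred), AT2G29870 (0.899, 0.460 centred) and AT5G42070 (0.896, 0.903 centred). CRR21 was followed by THIC, an enzyme of thiamine synthesis (0.940, 0.735 centred), by AT2G36560 (0.921, 0.642 centred) and by AT4G31930 (0.918, 0.764 centred). In all, 5 of these 12 likenesses stayed at 0.9 or above after position centring: 2 each for NdhS and CRR41, 1 for NdhN and 0 for CRR21.

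**Figure D4:**
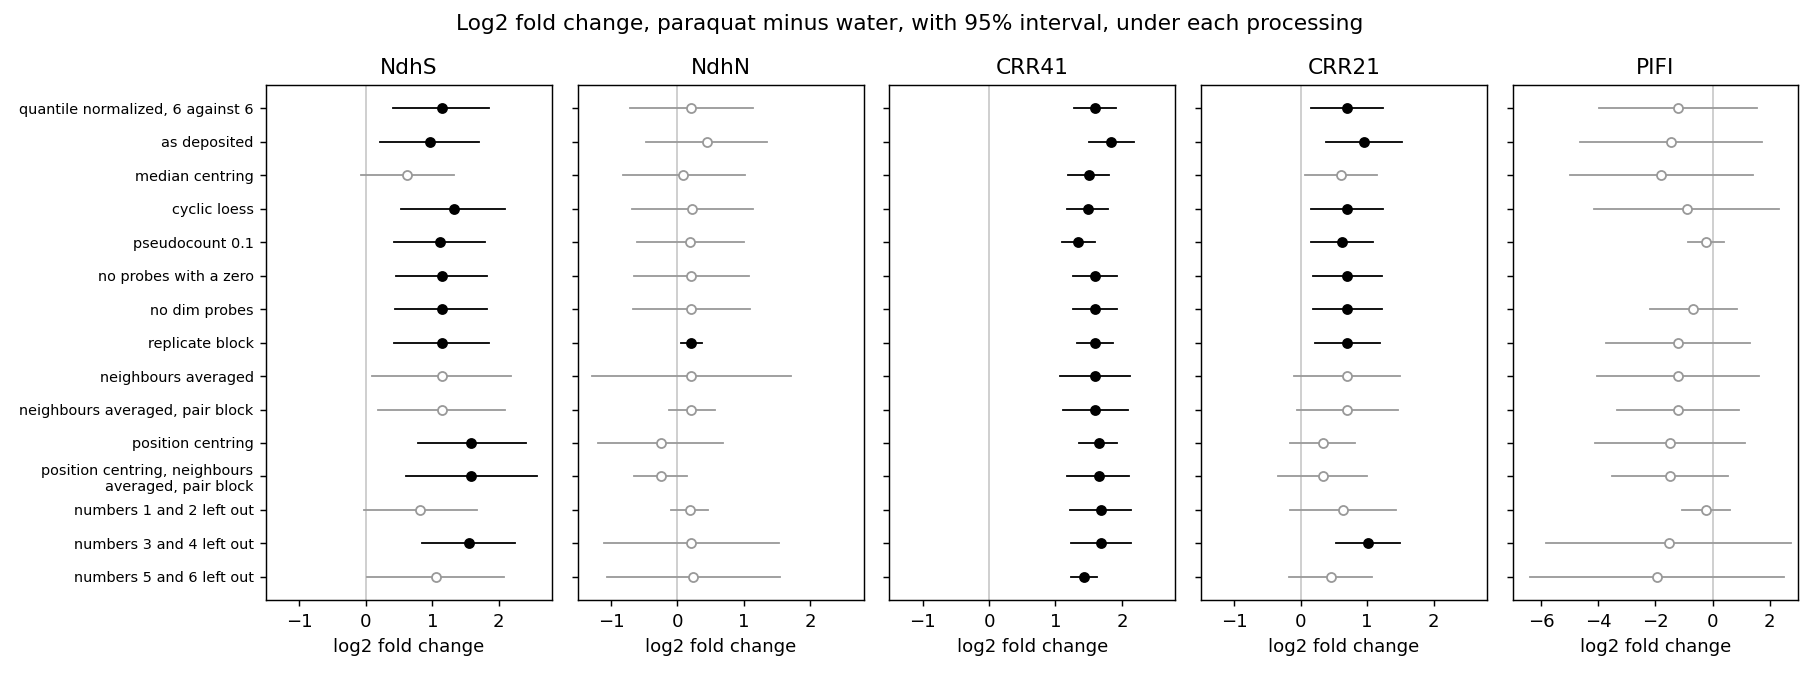
Log2 fold change, paraquat minus water (horizontal axis), with its 95% interval for the 5 genes under the processing described first and 14 alternatives (rows). Filled black points passed the adjusted threshold of 0.05 and open grey points did not. CRR41 is filled in every row, NdhS and CRR21 lose the call in several, NdhN is filled only with the replicate block, and PIFI, drawn on a wider axis, is open throughout and has no value where probes with a zero were left out.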

How the data were processed

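The deposited values are array intensities, 1 per probe and sample. The authors' scanner, their background correction and their scaling are not given in the sources used here, and column means of 0.944 to 1.07 show that some scaling took place. Each column held 108 to 148 zeros. A zero took the smallest positive value of its column, the columns were quantile normalized, and values were turned to log2. The test was limma's moderated linear model (limma 3.58.1, R 4.3.3), two-sided, fitted to 3439 probes and 12 samples and adjusted after Benjamini-Hochberg. The closing section gives the alternatives. Probe genes came from the platform annotation, with symbols updated from RefSeq of TAIR10.1 (690 of 692 probes with 1 gene matched); coordinates are left out, as the build behind the array is not stated. Position centring subtracted, in each sample, the median of each of 24 bins of 12 probe numbers. An array has no depth in reads, and precision is limited by the number of samples.

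Samples of equal number deviated together from their group means (correlations of 0.337 to 0.505 over 3186 probes without a zero). The numbers were therefore used to pair samples in the numbered pairs and in the alternatives with a block. The main fit and the permutation tests over the 12 samples took the samples as unpaired. The labels do not state a pairing. Correlations between samples of unequal number are not given here, so the likeness is not shown to be particular to equal numbers. The genes, the gene list, the bins and the alternatives were chosen with earlier results of these data known. Named are the 5 genes, all list genes with a probe of their own and the 3 closest probes per gene. Sequences of the genes were not used here.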

Additional observations from a re-analysis of the deposited data

Results flagged for a closer look

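In 3 of 14 groups of 6 samples (7 genes, 2 treatments), 1 sample stood apart: its gap to the nearest other sample, divided by the range of the group, exceeded Dixon's 95% limit for 6 values. About 0.7 such groups are to be met by chance. Paraquat sample 5 was the lowest for NdhS, at 6.65 with the nearest other sample at 7.49 (ratio 0.645), and for CRR21, at 1.16 with the nearest at 1.32 (ratio 0.631). Without that sample NdhS (1.17) and CRR21 (0.73) still passed. PIFI was listed at 0 in paraquat sample 1, with the nearest other sample at 0.150 (ratio 0.743).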

How the results depend on the processing

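CRR41 kept direction and call in all 26 alternatives, and NdhS in 21. NdhS lost its call with median centring (0.62, adjusted p = 0.125), with neighbouring numbers averaged (1.14, adjusted p = 0.0904; 0.0698 with their pair as a replicate block), and with numbers 1 and 2 (0.82) or 5 and 6 (1.05) left out. CRR21 lost its call with median centring (0.61, adjusted p = 0.0575), with averaging (0.70, adjusted p = 0.147; 0.118 with the replicate block), with position centring (0.33), also joined with averaging and the block (0.33, adjusted p = 0.363), and with numbers 1 and 2 (0.64) or 5 and 6 (0.45) left out. NdhN passed with the replicate block (0.21, adjusted p = 0.0319), but not with averaging and the block (0.21, adjusted p = 0.234), and turned sign with position centring (-0.25, also with averaging and the block). The replicate block changed no other call of a single gene. The cause was not tested in any of these cases. Leaving out 1 sample gave 0.97 to 1.31 for NdhS, 0.01 to 0.42 for NdhN, 1.48 to 1.66 for CRR41, 0.53 to 0.85 for CRR21 and -1.51 to 0.08 for PIFI, with the positive value without paraquat sample 1. PIFI has no value without probes that hold a zero.

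Of the 5 genes, 3 changed in the main fit, where 52.5% of all probes did. With median centring 1 changed, as did 53.2% of all probes. Averaging also gave 1 (33.7% of all probes), with the block as well (35.7%). Leaving out numbers 1 and 2 (49.3%) or 5 and 6 (45.0%) gave 1 too. The replicate block gave 4 (57.1%), and position centring gave 2 (47.4%), also with averaging and the block (26.9%). Without 1 sample 2 to 3 changed. Of the 7 list genes, 4 changed, but 2 did in the settings that gave 1 above. The replicate block gave 5, position centring gave 3, also with averaging and the block, and 3 to 4 changed without 1 sample. Of all probes 1805 changed, 1160 with averaging, 926 with position centring, averaging and the block, and 1681 to 1813 without 1 sample. Over all probes the median change (log2) was 0.19 as deposited and -0.16 with median centring; set against it, NdhS was at 0.78 in both, CRR41 at 1.66 and CRR21 at 0.76. The share of higher calls moved with it, 32.3% of probes higher and 21.5% lower as deposited, 20.8% higher and 32.4% lower with median centring.

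The difference CRR41 minus CRR21 did not pass with the replicate block (0.89, adjusted p = 0.0625) or with numbers 1 and 2 (1.04), 3 and 4 (0.67) or 5 and 6 (0.98) left out. Nor did it pass with neighbouring numbers averaged (0.89, exact test, adjusted p = 0.2) or with averaging and the block (0.89, adjusted p = 0.375). In each of these its unadjusted p was the smallest the exact test allows, so the lost call says nothing of a weaker difference. That smallest p was 0.0312 with the block and 0.0286 with 4 samples a group. It was 0.1 with averaging and 0.25 with averaging and the block. NdhS minus NdhN passed with the pseudocount (0.92, adjusted p = 0.0455), without paraquat sample 5 (1.08) and with position centring (1.85), NdhS minus CRR21 with position centring (1.27) or without water sample 5 (0.69), and NdhN minus CRR41 with position centring (-1.90). With position centring, averaging and the block, where 3 pairs cannot reach the threshold, NdhS minus NdhN was 1.85, NdhS minus CRR21 1.27 and CRR41 minus CRR21 1.32. Without 1 sample the ranges were 0.68 to 1.08 for NdhS minus NdhN, -0.65 to -0.26 for NdhS minus CRR41, 0.26 to 0.69 for NdhS minus CRR21, -1.63 to -1.14 for NdhN minus CRR41, -0.71 to -0.18 for NdhN minus CRR21 and 0.79 to 1.04 for CRR41 minus CRR21. The settings without numbers 3 and 4 or 5 and 6 were added after the data were seen.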
